A study of Mus musculus with 40 samples.

Results

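The CXC chemokines described here are 8 ligand genes, Cxcl1 (ENSMUSG00000029380), Cxcl2 (ENSMUSG00000058427), Cxcl3 (ENSMUSG00000029379), Cxcl9 (ENSMUSG00000029417), Cxcl10 (ENSMUSG00000034855), Cxcl11 (ENSMUSG00000060183), Cxcl14 (ENSMUSG00000021508) and Cxcl16 (ENSMUSG00000018920). They were taken by symbol from the 57010 gene identifiers of the deposited count table, and each symbol matched 1 identifier. Their messenger RNA was followed in mouse bone marrow-derived macrophages (BMDMs), primary cells grown from marrow in medium conditioned by L929 cells. The KO cells had the genotype OtulinFL/FL LysMCreTg/WT, that is, 2 loxP-flanked Otulin alleles and a Cre recombinase driven by the myeloid LysM (Lyz2) promoter. The WT cells had the genotype OtulinFL/FL, with the same flanked alleles and no Cre. No group carries Cre with an unflanked Otulin gene, so the loss of Otulin and the presence of Cre cannot be told apart. Cells of both genotypes were collected before treatment (0 h) and after 3, 6, 12 and 24 h with lipopolysaccharide (LPS, ultrapure, Salmonella minnesota, 500 ng/ml). Each of the 10 groups held 4 biological replicates, which gave 40 libraries. The strain and age of the mice are not stated in the labels.

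Chemokines are small secreted proteins that steer migrating leukocytes, and the CXC group is named for a conserved pair of cysteines parted by 1 residue. In macrophages LPS is sensed by TLR4 with CD14 and MD-2. The adaptor MyD88 leads to the transcription factor NF-kB, and the adaptor TRIF leads to IRF3 and interferon beta, which in turn acts on the cells through its receptor. OTULIN is a deubiquitinase that cleaves the linear ubiquitin chains built in the signalling complexes upstream of NF-kB. CXCL1, CXCL2 and CXCL3 draw neutrophils through the receptor CXCR2. CXCL9, CXCL10 and CXCL11 are induced by interferons and draw effector T cells and NK cells through CXCR3. CXCL16 is made as a membrane protein that the proteases ADAM10 and ADAM17 can shed, and it binds CXCR6. CXCL14 is a constitutively made chemokine of many epithelia, and in cultured macrophages it is less studied.

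In the RefSeq gene order of the assembly GRCm38.p6, 11 of the 15 mouse CXC ligand genes lie on chromosome 5. Cxcl3, Cxcl1 and Cxcl2 stand in that order in 1 cluster with Cxcl5, Ppbp, Pf4 and Cxcl15, and Cxcl9, Cxcl10 and Cxcl11 stand in that order in another. Cxcl16 is on chromosome 11 and Cxcl14 on chromosome 13. RefSeq lists Cxcl11 of this reference, the C57BL/6J strain, as a transcribed pseudogene. In that strain its tags would count a transcript that makes no protein. Whether this holds for the mice used is not known, as their strain is not stated. RefSeq promoters, 250 bases before to 50 bases after the start, were found for 6 of the 8 genes. Cxcl11 and Cxcl16 had no entry. The stretches before the start of Cxcl1, Cxcl2, Cxcl3 and Cxcl10 are given here because LPS raised these genes and their promoters hold matches to the NF-kB motif. They were picked by these matches and not by the size of the rise. LPS raised Cxcl9 as well, but its promoter held no such match and is not shown. Capitals mark letters that match the NF-kB (kappaB) consensus or the core of the interferon-stimulated response element (ISRE, GAAANNGAAA), on either strand, with overlapping matches run together. The sequences are those of RefSeq GRCm38.p6, 5′ to 3′ on the strand of the gene.
Cxcl1, chr5:90891115-90891214, plus strand, bases -130 to -31: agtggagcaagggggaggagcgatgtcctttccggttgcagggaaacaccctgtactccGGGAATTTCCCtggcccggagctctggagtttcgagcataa
Cxcl2, chr5:90903769-90903868, plus strand, bases -130 to -31: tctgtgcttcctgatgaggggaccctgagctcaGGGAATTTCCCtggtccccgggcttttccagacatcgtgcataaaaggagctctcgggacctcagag
Cxcl3, chr5:90785971-90786070, plus strand, bases -130 to -31: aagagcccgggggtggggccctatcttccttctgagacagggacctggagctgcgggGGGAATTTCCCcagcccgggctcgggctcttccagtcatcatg
Cxcl10, chr5:92348970-92349109, minus strand, bases -220 to -81: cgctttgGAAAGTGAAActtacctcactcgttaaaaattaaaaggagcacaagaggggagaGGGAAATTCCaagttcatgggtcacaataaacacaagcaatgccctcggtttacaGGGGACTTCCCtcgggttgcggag

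The promoters of Cxcl1, Cxcl2 and Cxcl3 shared the same 11 letters, GGGAATTTCCC, whose first base lay at -71 in Cxcl1, -97 in Cxcl2 and -73 in Cxcl3. Over the 50 bases centred near this match, Cxcl1 had 29 letters in common with Cxcl2 and 25 with Cxcl3, and Cxcl2 had 21 with Cxcl3. The stretches were aligned on the match, so its 11 letters are among those in common by construction, and no share for unrelated promoters was computed. The promoter of Cxcl10 held kappaB matches at -159, -104 and -103, the last 2 overlapping, and an ISRE match at -213. No kappaB, ISRE or gamma-activated site (GAS, TTCNNNGAA) match was found in the same window of Cxcl9, which held TATAAA at -195, as Cxcl3 did at -30. The promoter of Cxcl14 held an ISRE match at -172 and a GAS match at -191. Of 32841 mouse promoters of the same length, 8.46% held the kappaB consensus, 3.44% the ISRE core, 8.3% the GAS and 13.6% TATAAA on either strand. A match describes letters only, and binding was not measured.

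RNA was counted as 3′ tags (QuantSeq 3′ mRNA-Seq FWD), which sample the tail end of each transcript and so do not grow with its length. Library totals ran from 3615155 to 6829303 counts, and levels are given as CPM, tags of the gene scaled to a common library with library factors from the trimmed mean of M-values (TMM). The targeted gene Otulin had 27.6 to 51.7 CPM in the 20 KO libraries and 27.6 to 47.5 CPM in the 20 WT libraries, and no time passed the test between genotypes, with the lowest adjusted p at 3 h (log2 fold change -0.41 ± 0.098, SE, adjusted p = 0.0564, edgeR). The labels do not say where the flanked exons lie relative to the counted 3′ end, so these counts are not taken as a check of the deletion. Markers of macrophages (8 genes) summed to 3030 to 4720 CPM in KO cells and 2900 to 4690 CPM in WT, while those of T and NK cells (8 genes) reached at most 5.02 CPM in KO cells and 4.27 CPM in WT and those of B cells (4 genes) 2.6 CPM in both. Monocyte markers (6 genes) reached 536 CPM in KO cells and 603 CPM in WT, and neutrophil markers (11 genes) 89.5 and 111 CPM. Endothelial markers (3 genes) reached 159 CPM in KO cells and 184 CPM in WT. The endothelial sums did not overlap at 3 h (21.9 to 31 CPM in KO, 33.7 to 43.7 CPM in WT) or at 24 h (54.6 to 87.2 and 88.2 to 128 CPM). They overlapped at 0, 6 and 12 h. By Xist and Y-linked counts, KO replicate 3 and WT replicate 4 were male at all 5 times and the other replicates female. In such bulk samples, fewer cells making a transcript and less transcript per cell cannot be told apart.

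LPS raised 7 of the 8 chemokine transcripts and lowered Cxcl14. In KO cells Cxcl1, Cxcl2, Cxcl3, Cxcl9, Cxcl10, Cxcl11 and Cxcl16 were higher than at 0 h after 3, 6, 12 and 24 h, where 22.9%, 28.7%, 30.7% and 32.8% of the 12037 genes tested were higher. In WT cells the same 7 were higher after 3, 6 and 12 h, and 6 of them after 24 h, where 26.6%, 31%, 32.3% and 34.5% of the 12151 genes tested were higher. The exception was Cxcl1 in WT at 24 h (log2 fold change 1.80 ± 0.87, SE, adjusted p = 0.0768, edgeR), which was called with DESeq2 (adjusted p = 0.00254), in 1 fit of all 40 libraries (0.0394) and without WT 24 h replicate 4 (0.0493). Cxcl14 was lower at 3, 6 and 12 h in both genotypes, where 25.7%, 36% and 34% of genes were lower in KO and 28%, 37.1% and 35.9% in WT. At 24 h Cxcl14 was lower in WT, where 35.4% of genes were lower, but did not pass in KO, where 33% were (-0.46 ± 0.24, SE, adjusted p = 0.0975, edgeR). Cxcl14 in KO was called without KO 0 h replicate 4 (adjusted p = 0.0395, edgeR) and with the replicate number as a block (0.0398). The median log2 change of the 8 genes at 3 h was 7.77 in KO and 7.62 in WT, beside medians of -0.04 in KO and -0.05 in WT over all genes tested. Cxcl1, Cxcl3, Cxcl9 and Cxcl11 passed the filter on low counts in these fits through their LPS groups, since they had few counts before LPS.

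**Figure D1:**
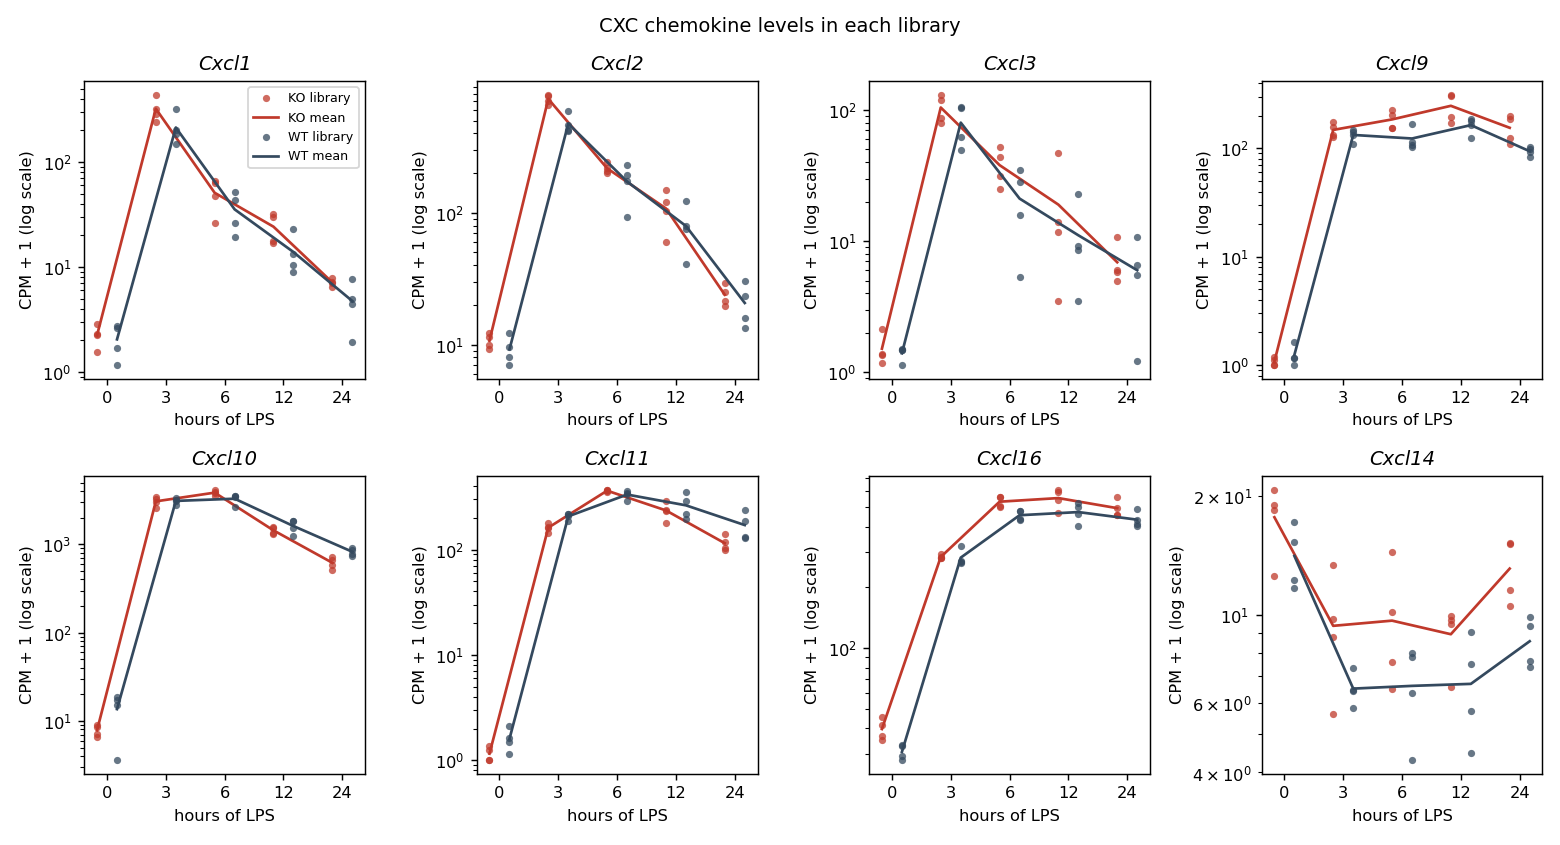
Level of each CXC chemokine gene in every library, as CPM + 1 on a log axis (y) against hours of LPS (x, times evenly spaced and not to scale). Red points are the 4 KO libraries and dark points the 4 WT libraries of a time, and lines join the group means; Cxcl1, Cxcl2 and Cxcl3 are highest at 3 h, Cxcl9, Cxcl10, Cxcl11 and Cxcl16 are highest at 6 or 12 h, and Cxcl14 is highest at 0 h.

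The neutrophil attractants were induced early and briefly. Cxcl2 was the best counted of them: in KO it averaged 9.69, 730, 216, 107 and 22.9 CPM at 0, 3, 6, 12 and 24 h, and in WT 8.18, 474, 171, 78.3 and 19.7 CPM. Its log2 change from 0 to 3 h was 6.22 ± 0.22 in KO and 5.86 ± 0.39 in WT (SE, adjusted p = 5.96e-16 in KO and 1.19e-09 in WT, edgeR). Cxcl1 averaged 1.23, 320, 49.9, 23.2 and 6.13 CPM in KO cells and 1.05, 212, 34.3, 12.9 and 3.74 CPM in WT over the same times. Cxcl1 therefore had little transcript before LPS, 31 counts over the 4 KO libraries and 27 over the 4 WT libraries. Cxcl3 was the least abundant of the group, with averages of 0.514, 103, 37.0, 18.0 and 5.90 CPM in KO cells and 0.396, 79.0, 20.1, 10.1 and 5.00 CPM in WT.

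All 3 genes were highest at 3 h in every replicate number of both genotypes, and they then fell at unlike rates. At 6 h, Cxcl1 kept 15.4% ± 3.81 of its 3 h level in KO and 15.9% ± 3.88 in WT (SD over the 4 replicate numbers). Cxcl2 kept 29.8% ± 3.17 in KO and 35.7% ± 9.27 in WT. Cxcl3 kept 36.6% ± 12.9 in KO and 23.2% ± 10.3 in WT, so its spread covered both genotypes. The fall from 3 to 6 h passed the test for all 3 in both genotypes, and Cxcl1 fell by 2.68 ± 0.25 in KO and fell by 2.62 ± 0.33 in WT on the log2 scale (SE, adjusted p = 7.67e-08 in KO and 6.68e-06 in WT, edgeR). The call of Cxcl3 in KO (adjusted p = 0.0147) was lost without KO 6 h replicate 1 (adjusted p = 0.0536). In that step 21.6% of all genes tested fell in KO and 21.9% in WT. By 24 h Cxcl1 stood at 2.02% of its 3 h level in KO and 1.65% in WT. At that time Cxcl2 and Cxcl3 in WT were only just past the threshold against 0 h (adjusted p = 0.0217 and 0.0235, edgeR), and Cxcl2 was lost without WT 0 h replicate 1 or WT 24 h replicate 2 and Cxcl3 without WT 0 h replicate 1 or WT 24 h replicate 1 (adjusted p up to 0.0759 for Cxcl2 and 0.0747 for Cxcl3).

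The CXCR3 ligands were also up at 3 h, reached their highest mean at 6 or 12 h and fell by 24 h. Cxcl10 had the highest level of the 8 in every group treated with LPS (CPM of 3′ tags, which do not grow with transcript length). Cxcl10 averaged 6.82, 3068, 3851, 1439 and 618 CPM in KO cells and 12.6, 3104, 3288, 1610 and 824 CPM in WT at 0, 3, 6, 12 and 24 h. Its level at 6 h was above that at 3 h in KO (log2 0.32 ± 0.11, SE, adjusted p = 0.018, edgeR) and was not called in WT (0.08 ± 0.23, adjusted p = 0.819), and the KO call was lost without KO 6 h replicate 4 (adjusted p = 0.0584) and in 1 fit of all 40 libraries (0.164). In that step 19% of genes rose in KO and 20.4% in WT.

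Cxcl11 averaged 0.155, 160, 361, 234 and 114 CPM in KO cells and 0.597, 206, 332, 262 and 170 CPM in WT. It rose from 3 to 6 h in both genotypes, by 1.17 ± 0.13 in KO and 0.69 ± 0.19 in WT on the log2 scale (SE, adjusted p = 9.2e-08 in KO and 0.0074 in WT, edgeR). Before LPS Cxcl11 had only 4 counts over the 4 KO libraries and 15 over the 4 WT libraries.

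Cxcl9 reached its highest mean latest of the 3 CXCR3 ligands, with averages of 0.0759, 147, 184, 246 and 154 CPM in KO cells and 0.242, 132, 122, 163 and 93.2 CPM in WT. In WT its mean at 6 h was thus below that at 3 h. Its highest level came at 12 h in every replicate number of both genotypes, although the rise from 6 to 12 h, where 22.3% of genes rose in WT, passed in WT (0.41 ± 0.15, SE, adjusted p = 0.0321, edgeR) and not in KO (0.42 ± 0.22, adjusted p = 0.126), where it was called without the filter on low counts (0.000553). The WT call was lost without any of WT 6 h replicates 2, 3 and 4 or WT 12 h replicates 1, 3 and 4 (adjusted p up to 0.0947), and in 1 fit of all 40 libraries (0.0939). Only 2 Cxcl9 counts were seen over the 4 KO libraries before LPS. The ratio of its level at 12 h to that at 0 h in KO was 3070, with an exact 95% interval of 848 to 25300 that covers counting error only. Between 12 and 24 h, where 18.8% of genes fell in KO and 20.5% in WT, all 3 ligands fell in both genotypes. Cxcl10 fell by 1.20 ± 0.11 in KO and fell by 0.96 ± 0.23 in WT on the log2 scale (SE, adjusted p = 7.68e-09 in KO and 0.00354 in WT, edgeR). The fall of Cxcl9 in KO (adjusted p = 0.0216) was lost without KO 12 h replicate 1 or 3 or KO 24 h replicate 2 or 4 (adjusted p up to 0.0722), and that of Cxcl11 in WT (0.0159) without WT 12 h replicate 2 or WT 24 h replicate 1 or 4 (up to 0.0699).

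Cxcl16, the membrane-bound ligand of CXCR6, rose until 6 h and had no called step after that. It averaged 38.7, 282, 531, 553 and 493 CPM in KO cells and 29.6, 280, 455, 471 and 432 CPM in WT. The step from 6 to 12 h was 0.06 ± 0.09 in KO and 0.05 ± 0.08 in WT, and the step from 12 to 24 h was -0.15 ± 0.09 in KO and -0.12 ± 0.08 in WT (log2, SE; lowest adjusted p = 0.207, edgeR). At 24 h it kept 85.6% ± 8.08 of its highest level in KO and 89.8% ± 5.26 in WT (SD over the 4 replicate numbers).

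Cxcl14 ran the other way at low levels. It averaged 16.6, 8.38, 8.67, 7.94 and 12.1 CPM in KO cells and 13.1, 5.51, 5.62, 5.70 and 7.58 CPM in WT. At 3 h its log2 change from 0 h was -0.98 ± 0.25 in KO and -1.25 ± 0.22 in WT (SE, adjusted p = 0.0023 in KO and 2.01e-05 in WT, edgeR). The 4 values at 0 h were 17.4, 17.9, 19.7 and 11.5 CPM in KO cells and 14.3, 16.1, 10.7 and 11.2 CPM in WT. In WT the 0 h values lay above every later value, and in KO replicate 4 at 0 h lay below some later values.

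**Figure D2:**
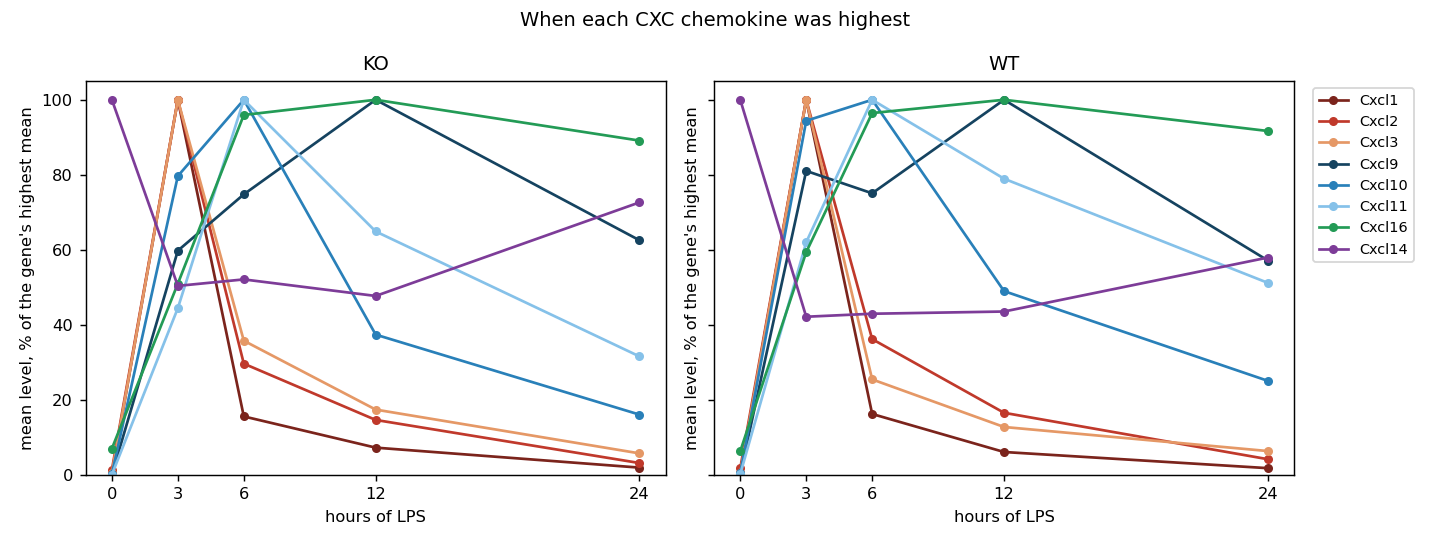
Mean level of each CXC chemokine gene as a percentage of its own highest group mean (y) against hours of LPS (x), KO on the left and WT on the right, 4 libraries per point. Cxcl1, Cxcl2 and Cxcl3 reach their highest mean at 3 h, Cxcl10 and Cxcl11 at 6 h, Cxcl9 and Cxcl16 at 12 h and Cxcl14 at 0 h in both genotypes.

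The make-up of the chemokine tags shifted with time. Before LPS the 8 genes together had 73.8 ± 8.65 CPM in KO cells and 65.7 ± 9.83 CPM in WT (SD, n = 4 each), of which Cxcl16 held 52.6% ± 4.98 in KO and 45.6% ± 5.91 in WT. At 3 h the sum was 4819 ± 452 CPM in KO cells and 4491 ± 291 CPM in WT. Cxcl1, Cxcl2 and Cxcl3 then held 24% ± 1.65 of the tags in KO and 17% ± 3.29 in WT, and the KO range of 21.6% to 25.3% did not meet the WT range of 13.3% to 20.9%. At 6 h the CXCR3 ligands held 83.9% ± 0.38 in KO and 84.5% ± 1.25 in WT. By 24 h the sum had come down to 1426 ± 112 CPM in KO cells and 1555 ± 115 CPM in WT, and Cxcl16 held 34.6% ± 1.39 of it in KO and 27.9% ± 3.56 in WT. These shares are descriptions, and no test was made of them.

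The comparison of KO with WT asks whether macrophages of the Otulin knockout genotype hold these transcripts at other levels at the same time. Before LPS none of the 4 genes with enough counts passed the test (Cxcl2, Cxcl10, Cxcl14 and Cxcl16), where 0% of 11734 genes were called. Of the 4, 1 had an unadjusted p under 0.05, Cxcl16, as did 900 of the 11734 genes. At 3 h 2 of the 8 were called, Cxcl2 higher and Cxcl11 lower in KO, where 0.689% of 11035 genes were called, 0.362% higher and 0.326% lower. Of the 8, 3 had an unadjusted p under 0.05 at 3 h, as did 1292 of the 11035 genes. At 6, 12 and 24 h 0 of the 8 were called, where 1.01%, 0.0464% and 0.0809% of genes were called. At these times 3, 2 and 5 of the 8 had an unadjusted p under 0.05. So did 1265 of 10518 genes at 6 h, 832 of 10783 at 12 h and 830 of 11122 at 24 h. The median log2 difference of the 8 genes, KO over WT, was 0.26, 0.42, 0.46 and 0.25 at 3, 6, 12 and 24 h, beside 0.01, -0.01, -0.01 and 0 over all genes. Before LPS the median was already 0.29 over the 4 genes tested, 3 of them above 0, beside 0.002 over all genes. The 4 KO and 4 WT values did not overlap for 2 of the 8 genes at 3 h, 1 at 6 h, 0 at 12 h and 3 at 24 h, where 6.24%, 7.81%, 5.03% and 4.41% of all genes tested did not overlap. Before LPS they did not overlap for Cxcl16, where 5.02% of all genes tested did not.

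Cxcl2 had 787, 706, 656 and 770 CPM in the KO libraries of replicates 1 to 4 at 3 h, against 586, 465, 426 and 417 CPM in the WT libraries. Every KO value lay above every WT value. The log2 fold change was 0.62 ± 0.10 (SE, n = 4 each, adjusted p = 0.00812, edgeR's quasi-likelihood test with Benjamini-Hochberg adjustment), a 1.54-fold higher level in KO. The call was lost without WT replicate 2 (adjusted p = 0.0571) and in 1 fit of all 40 libraries, which shares 1 spread over all groups (adjusted p = 0.397), with the size of the difference at 0.61 and 0.62.

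Cxcl1, the closest neighbour of Cxcl2 in the genome and in function, had 437, 288, 315 and 241.1 CPM in KO at 3 h, against 315, 184, 200 and 147 CPM in WT. Its mean difference was of the same size, 0.59 ± 0.29 (SE), but the groups overlapped and it was not called (adjusted p = 0.505, edgeR). Cxcl3 had 86.4, 118, 79.2 and 130 CPM in KO, against 102, 104, 60.9 and 48.8 CPM in WT, and was not called either (0.36 ± 0.30, SE, adjusted p = 0.728, edgeR). At 6, 12 and 24 h the averages of Cxcl1, Cxcl2 and Cxcl3 were each higher in KO, by log2 differences of 0.23 to 0.84, and every one of these 9 comparisons had overlapping groups and an adjusted p of at least 0.576.

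Cxcl11 went the other way at 3 h, with 178, 161, 144 and 159 CPM in KO against 184, 217, 207 and 215 CPM in WT. Every KO value lay below every WT value, the nearest pair being 178 CPM in KO cells and 184 CPM in WT, both of replicate 1. The log2 fold change was -0.36 ± 0.08 (SE, n = 4 each, adjusted p = 0.041, edgeR), a level in KO 0.778 times that in WT. This call lay close to the threshold and was lost without any of KO replicates 2, 3 and 4 or WT replicates 2, 3 and 4 (adjusted p = 0.0755 to 0.157) and in 1 fit of all 40 libraries (adjusted p = 0.556). At 6 h the Cxcl11 groups overlapped (354, 364, 368 and 357 CPM in KO, against 334, 345, 357 and 290 CPM in WT), with a difference of 0.11 ± 0.07 (SE, adjusted p = 0.614, edgeR) and a 95% interval of -0.0386 to 0.249. The other CXCR3 ligands were not called at 3 h, with 0.16 ± 0.12 for Cxcl9 and -0.02 ± 0.10 for Cxcl10 (SE, adjusted p = 0.661 and 0.975, edgeR).

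**Figure D3:**
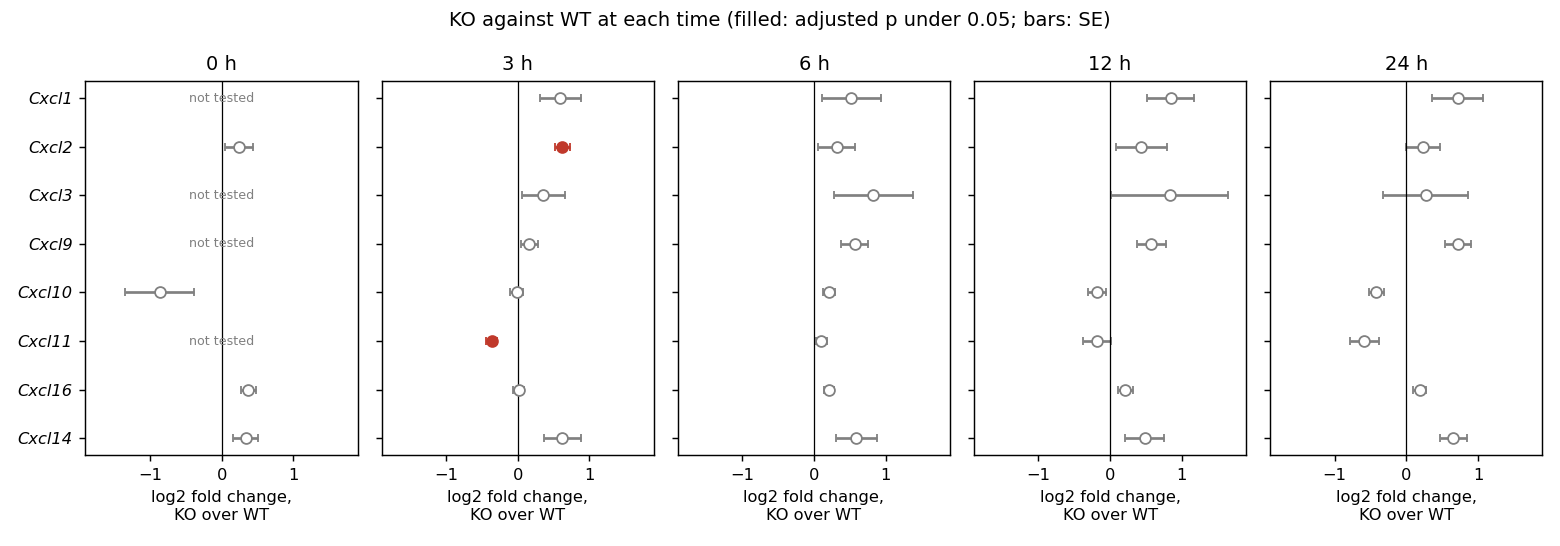
Log2 fold change of KO over WT (x, bars are SE) for each CXC chemokine gene (y) at 0, 3, 6, 12 and 24 h, 4 libraries per genotype and time. Filled red points passed an adjusted p of 0.05 (Cxcl2 and Cxcl11 at 3 h), open grey points did not, and Cxcl1, Cxcl3, Cxcl9 and Cxcl11 had too few counts to be tested at 0 h.

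At 24 h the CXCR3 ligands parted in direction without any of them passing the test. Cxcl9 had 196, 109, 186 and 124 CPM in KO against 101, 82.8, 91.6 and 97.2 CPM in WT, with no overlap and a log2 difference of 0.72 ± 0.18 (SE, adjusted p = 0.243, edgeR). Cxcl10 had 584, 656, 509 and 723 CPM in KO against 786, 918, 855 and 735 CPM in WT, again with no overlap, and a difference of -0.42 ± 0.10 (SE, adjusted p = 0.157). Cxcl11 had 117, 140, 97.6 and 101 CPM in KO against 128, 234, 187 and 130 CPM in WT, with overlap and a difference of -0.58 ± 0.20 (SE, adjusted p = 0.533). Which of them was called depended on the method: DESeq2 called Cxcl9 (adjusted p = 0.00516) and Cxcl10 (0.0232), and edgeR without KO 24 h replicate 4 called Cxcl10 (0.0353). Cxcl9 was also higher in KO by 0.57 ± 0.19 at 6 h and by 0.57 ± 0.20 at 12 h (SE), not called by edgeR (adjusted p = 0.266 and 0.493), and DESeq2 and edgeR without WT 6 h replicate 1 called it at 6 h (0.0156 and 0.0171).

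The quotient of Cxcl10 over Cxcl9 within a library does not depend on scaling. It averaged 21.3 ± 4.9, 21.7 ± 5.39, 6.15 ± 1.35 and 4.38 ± 1.77 in KO at 3, 6, 12 and 24 h (SD, n = 4). In WT it averaged 23.6 ± 1.94, 27.7 ± 6.13, 10.2 ± 3.21 and 8.94 ± 1.64 at these times. It was thus lower at 12 and 24 h than at 3 and 6 h in both genotypes, and the KO range of 2.73 to 6.01 at 24 h did not meet the WT range of 7.56 to 11.1. This quotient was picked after its values were seen, and no test was made of it.

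**Figure D4:**
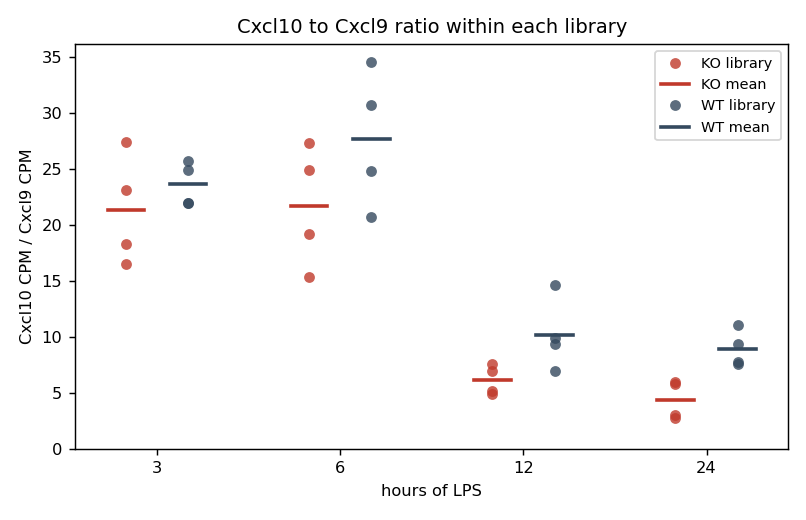
Cxcl10 CPM divided by Cxcl9 CPM within each library (y) at 3, 6, 12 and 24 h of LPS (x), KO points left of WT points, with a bar at each mean of 4 libraries. At 24 h the KO libraries lie between 2.73 and 6.01 and the WT libraries between 7.56 and 11.1.

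Cxcl16 and Cxcl14 had higher averages in KO at all 5 times, as Cxcl1, Cxcl2 and Cxcl3 did. For Cxcl16 and Cxcl14 no time was called, and the ratio of the means of Cxcl16 at 3 h was only 1.008. Cxcl16 had 44.6, 34.1, 40.3 and 35.7 CPM in KO at 0 h against 28.0, 31.9, 26.8 and 31.6 CPM in WT. Its groups did not overlap, where 5.02% of all genes did not, and the difference of 0.38 ± 0.11 was not called (SE, adjusted p = 0.36, edgeR). At 3 h Cxcl16 had overlapping groups, with 277 to 291 CPM in KO cells and 264 to 320 CPM in WT. At 6 h it had 504, 559, 499 and 561 CPM in KO against 479, 434, 430 and 476 CPM in WT, without overlap and not called (0.21 ± 0.07, SE, adjusted p = 0.231, edgeR). Cxcl14 had 14.1, 9.52, 14.2 and 10.6 CPM in KO at 24 h against 6.40, 8.90, 8.35 and 6.66 CPM in WT, without overlap and not called (0.66 ± 0.19, SE, adjusted p = 0.286, edgeR). After LPS Cxcl14 rests on 89 to 249 counts per group of 4 libraries.

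An interaction of genotype with time asks whether KO and WT cells respond to LPS to a different extent. The test called 0 of the 8 genes at 3, 6, 12 and 24 h, where 0%, 0%, 0% and 0.00818% of all genes were called. Of all genes tested, 342 of 12165 had an unadjusted p under 0.05 at 3 h and 529 of 12096 at 6 h. Of the 8, 1 had such a p at 3 h and 2 at 6 h. These were Cxcl16 at 3 h, whose response in KO minus that in WT was -0.36 ± 0.13, and Cxcl10 at 1.07 ± 0.47 and Cxcl11 at 1.83 ± 0.67 at 6 h (log2, SE). That of Cxcl11 rests on 4 counts in KO and 15 in WT before LPS. The values of Cxcl10 rest on its level before LPS, 6.03, 8.03, 7.62 and 5.59 CPM in KO against 2.58, 16.1, 17.7 and 14.0 CPM in WT. Without WT 0 h replicate 1, the low one, the interaction of Cxcl10 was called at 3 h (1.20, adjusted p = 0.034, edgeR) and at 6 h (1.43, adjusted p = 0.00168). For the 2 genes called between genotypes at 3 h, the interaction at 3 h was called in 0 of 16 fits with single libraries left out. It ran from 0.187 to 0.512 for Cxcl2 and from 0.881 to 1.93 for Cxcl11 (log2), for Cxcl11 opposite in sign to its genotype difference. The genotype calls at 3 h are thus not shown to be differences in the response to LPS.

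Libraries of one replicate number kept a place in their group for some of these genes. WT replicate 4 was the lowest WT library for Cxcl1, Cxcl2 and Cxcl3 at all 4 LPS times. It lay below its group mean by 0.89 for Cxcl1, 0.62 for Cxcl2 and 1.92 for Cxcl3 on average over these times (log2 CPM). By its counts it was also the male WT replicate. The male KO replicate, number 3, was the lowest KO library for each of these genes at 2 of the 4 LPS times. The part of sex in these places was not tested. For Cxcl3 at 24 h, WT replicate 4 had 0.23 CPM, against 9.72, 5.56 and 4.49 CPM in WT replicates 1, 2 and 3. WT replicate 1 was the highest WT library for Cxcl1 and Cxcl9 at all 4 LPS times. In KO, replicate 4 was the highest for Cxcl3 at all 4 times, and at 12 h it had 45.7 CPM, against 2.50 CPM in KO replicate 3 and 10.7 and 12.9 CPM in KO replicates 1 and 2. At 24 h Cxcl16 ran from 457 to 562 CPM in KO and from 403 to 488 CPM in WT, and Cxcl11 from 97.6 to 140 CPM in KO and from 128 to 234 CPM in WT.

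**Figure D5:**
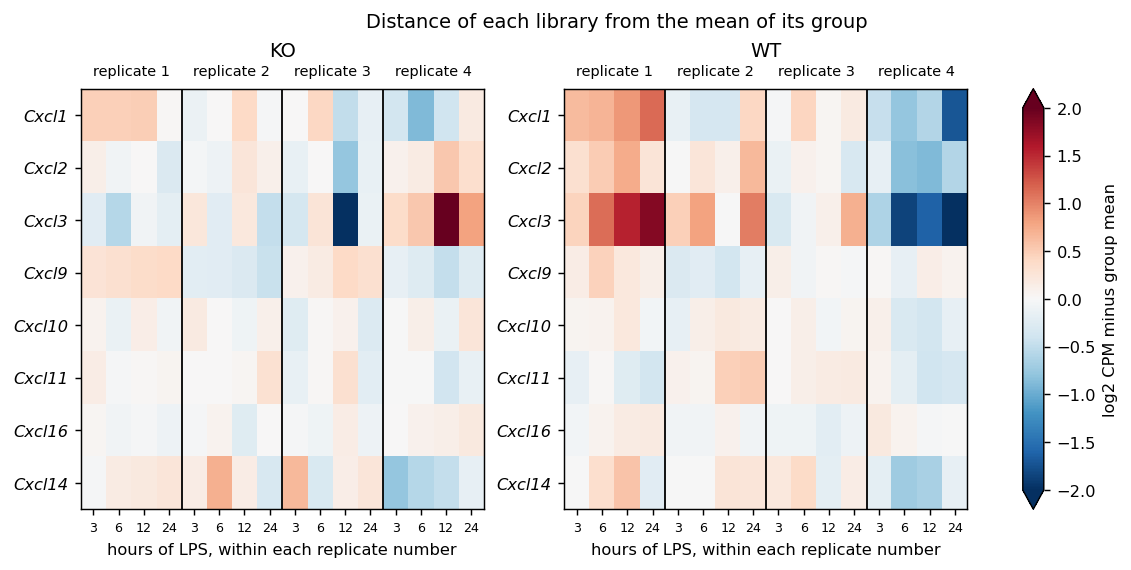
Log2 CPM of each library minus the mean of its group (colour, red above and blue below, limits of the scale at 2) for each CXC chemokine gene (rows) at 3, 6, 12 and 24 h of LPS within each replicate number (columns), KO on the left and WT on the right. WT replicate 4 is blue for Cxcl1, Cxcl2 and Cxcl3 at all 4 times, and Cxcl3 has the widest spread of the 8 genes.

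Genes whose log2 CPM ran most like each member over the 40 libraries were found among 9085 genes whose mean level was 5 CPM or more. These correlations are descriptions across libraries that share the LPS times. Cxcl10 was most like Ifi203 (Pearson r = 0.995), Il1b (0.993) and Gbp5 (0.992). Cxcl11 was most like Rsad2 (0.995), Mndal (0.994) and Slfn8 (0.993), and Cxcl9 like Traf1 (0.988), Acod1 (0.988) and Rtp4 (0.986). Cxcl16 was most like Tnfrsf1b (0.997), AW112010 (0.993) and Cd274 (0.993). The neutrophil attractants had other company: Cxcl2 ran with Jdp2 (0.965), Nfkbiz (0.964) and Ccl4 (0.960), Cxcl1 with Rab11fip1 (0.956), Tnfaip2 (0.954) and Plat (0.951), and Cxcl3 with Tnfaip3 (0.947), Cd14 (0.941) and Pnrc1 (0.934). Cxcl14 was most like Htr2b, followed by Pdcl (0.758) and Slc6a8 (0.751). Among the 8, the closest pairs were Cxcl9 with Cxcl11 (0.982), Cxcl10 with Cxcl11 (0.978) and Cxcl1 with Cxcl2 (0.975), and Cxcl16 was nearest to Cxcl9 (0.969).

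Most other genes of the CXC system had few counts in these cells. Of the other 7 ligand genes, Pf4, a platelet chemokine that macrophages also make, was counted at 563 to 1068 CPM in KO cells and 425 to 1095 CPM in WT in all libraries. Cxcl5, a further CXCR2 ligand, had 2.16 to 5.07 CPM in KO cells and 1.14 to 2.29 CPM in WT at 3 h, too low for the test between genotypes. Cxcl15 and Cxcl17 had 0 counts in all 40 libraries, and Cxcl12 had 0 to 3 counts per group. Among the receptors, Cxcr2 had 2 to 10 counts per group and Cxcr6 1 to 29. Cxcr3 had 3.48 CPM in KO cells and 3.68 CPM in WT before LPS and 1.36 CPM in KO cells and 1.14 CPM in WT at 24 h. Cxcr4, the receptor for CXCL12, was the exception and fell to 3.59 CPM in KO cells and 3.98 CPM in WT at 6 h, against 124 CPM in KO cells and 134 CPM in WT at 0 h (log2 change -5.11 ± 0.20 in KO and -5.10 ± 0.20 in WT, SE, adjusted p = 3.38e-17 in KO and 7.82e-17 in WT, edgeR). Of the other 7 ligands and 9 receptor genes, 0 were called between KO and WT at any time. Only Pf4, Ppbp, Cxcr3 and Cxcr4 among them had enough counts to be tested, and at 24 h only 1 ligand and 1 receptor did.

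Some genes known to act upstream of these ligands, or on their transcripts and proteins, were called between KO and WT, beside shares over all genes of 0.689% at 3 h and 1.01% at 6 h. The lists were chosen with earlier results of these data known. The counts of calls in them are therefore descriptions, and the lists were not tested as sets. Of the 12 genes of LPS sensing and NF-kB, 0 were called between genotypes at any time. At 3 h Nfkbiz, which encodes an atypical nuclear IkB protein, rose by 5.61 ± 0.11 in KO and 5.61 ± 0.14 in WT (log2, SE, adjusted p = 1.01e-22 in KO and 9.03e-21 in WT, edgeR). Of the 16 genes of the interferon arm, 14 were tested at 6 h and 2 called: Irf8 was higher in KO (0.47 ± 0.09) and Ifngr1, a chain of the interferon gamma receptor, lower (-0.39 ± 0.09, SE, adjusted p = 0.0177 and 0.0433, edgeR). Ifnb1, which encodes interferon beta, had 0 counts before LPS in all 8 libraries and 8.79 to 11.1 CPM in KO cells and 2.14 to 7.09 CPM in WT at 3 h, where the difference of 0.87 ± 0.25 was not called (log2, SE, adjusted p = 0.129, edgeR). Ifng, which encodes the interferon that gives Cxcl9 its older name Mig, had 1 count over all 8 libraries at 3 h. Of the 7 regulators of mRNA decay, 1 was called at 3 h, Zfp36l2, higher in KO (0.38 ± 0.08, SE, adjusted p = 0.0318, edgeR). Of the 8 proteases that can shed or trim chemokines, 7 were tested at each of these times: Mmp12 was higher in KO at 3 h, and Mmp9, Mmp12 and Ctsk were higher at 6 h (log2 1.17 ± 0.16 for Mmp9, 0.60 ± 0.11 for Mmp12 and 0.96 ± 0.19 for Ctsk, SE, adjusted p = 0.00228, 0.0144 and 0.0181, edgeR).

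Some markers of neutrophils and monocytes differed between genotypes at the same time as Cxcl2 and Cxcl11. At 3 h the 11 neutrophil markers summed to 38.5 to 52.1 CPM in KO cells and 68.8 to 82.9 CPM in WT, and Ly6g and Retnlg had 0 counts in both groups. S100a8 and S100a9 were lower in KO (-0.76 ± 0.11 and -1.08 ± 0.17, log2, SE, adjusted p = 0.00526 for both, edgeR), 2 of the 3 neutrophil markers tested. The 6 monocyte markers summed to 176 to 245 CPM in KO cells and 235 to 277 CPM in WT, with overlap. Of these 6, Ly6c2 and Vcan were lower in KO (-0.93 ± 0.19 and -0.66 ± 0.13, log2, SE, adjusted p = 0.025 and 0.0362, edgeR). The monocyte sums also overlapped at 6 h (480 to 536 CPM in KO cells, 439 to 603 CPM in WT). They overlapped at 12 h (333 to 502 CPM in KO cells, 403 to 463 CPM in WT) and at 24 h (165 to 191 CPM in KO cells, 182 to 210 CPM in WT). At 6 h, where no chemokine was called, the neutrophil markers summed to 61.6 to 87.1 CPM in KO cells and 93.5 to 104 CPM in WT. At 12 h they summed to 70.2 to 89.5 CPM in KO cells and 87.2 to 111 CPM in WT, with overlap. At 24 h, where none was called either, they summed to 57.6 to 63.1 CPM in KO cells and 73.1 to 78.5 CPM in WT. Lyz2, the gene whose promoter drives the Cre, was lower in KO at 3, 6 and 24 h (-0.47 ± 0.09, -0.44 ± 0.075 and -0.59 ± 0.10, SE, adjusted p = 0.0258, 0.00752 and 0.0387, edgeR). Before LPS and at 12 h the Lyz2 difference had a similar size and was not called (-0.40 ± 0.11 and -0.49 ± 0.14, SE, adjusted p = 0.36 and 0.31, edgeR). Only KO cells carry the Cre, so for the lower Lyz2 the presence of Cre and the loss of Otulin cannot be told apart. The part of these marker and Lyz2 differences in the chemokine differences was not tested.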

How the data were processed

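Messenger RNA of KO and WT BMDMs was measured by 3′ tag sequencing in 40 libraries. The deposited values are expected counts for each gene, all of them whole, in a single table from the authors. Per the submitters' processing notes the tools included RSEM 1.3.3, STAR 2.7.10a, UMI-tools 1.1.2, cutadapt 3.7 and FastQC 0.11.9, with the genome build GRCm39. Settings, annotation release, strand use and whether reads were collapsed by molecular identifier were not given in the sources used here. Symbols were matched to 52029 of 57010 identifiers (91.3%).

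Genes were kept with filterByExpr (minimum count 10) and tested with edgeR 4.0.16 (R 4.3.3), using TMM factors and the quasi-likelihood test, with Benjamini-Hochberg adjustment over all genes tested and a threshold of 0.05. KO against WT was fitted on the 8 libraries of a time, LPS against 0 h and steps between times on the 20 libraries of a genotype, and the interaction on the 16 libraries of a time and 0 h. SE was taken as the size of the log2 fold change divided by the root of the F statistic. CPM uses TMM-scaled totals of all 40 libraries, and log2 CPM a prior count of 2. Library totals of 3615155 to 6829303 counts (median 4471933) put about 22.4 counts behind 5 CPM. Counting intervals are exact at 95% and cover counting error only, and a count may not stand for 1 molecule. The scripts were tested on simulated data.

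Alternatives were DESeq2 1.42.0, its size factors (RLE), no filter on low counts, 1 fit of all 40 libraries, sex as a covariate, the replicate number as a block, and each library left out. Within groups, 60 pairs of libraries differed by more than sampling noise (chi-square over degrees of freedom 2.34 to 18.9), so none was treated as a duplicate. The members and gene lists were chosen with earlier results of these data known. Named genes are the 8 members, the genes of the lists and, for likeness, the 3 genes with the highest Pearson r per member among genes whose mean level was 5 CPM or more. Values of some list genes are not reported here.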

Additional observations from a re-analysis of the deposited data

Results flagged for a closer look

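In 4 of the 80 groups of 4 libraries (8 genes, 10 groups), 1 library stood apart from the other 3 by a gap that was large against the range of the group. Chance alone flags about 1 in 20 such groups, which is about as many as were seen. Cxcl3 in WT at 0 h was lowest in replicate 1, with 0.136 CPM against 0.467 to 0.493 CPM in the others. Cxcl10 in WT at 6 h was lowest in replicate 4, with 2650 CPM against 3440 to 3530 CPM in the others. Cxcl14 in KO at 12 h was lowest in replicate 4, with 5.59 CPM against 8.5 to 8.96 CPM in the others. Cxcl16 in WT at 3 h was highest in replicate 4, with 320 CPM against 264 to 269 CPM in the others.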

How the results depend on the processing

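Of 3256 values of the 8 genes under an alternative, 3160 kept their side of the threshold (56 of these, called under neither setting, changed sign), 41 lost a call, 55 gained one and 0 called values changed sign. In KO against WT at 3 h the count of 2 calls was 0 in 1 fit of all 40 libraries and 0 to 2 with single libraries left out. The count of 0 calls at 6 h was 1 with DESeq2, 1 without the filter and 0 to 1 with single libraries left out, each time Cxcl9. The count of 0 at 12 h was 2 without the filter (Cxcl1 and Cxcl9). The count of 0 at 24 h was 2 with DESeq2 and 2 without the filter (Cxcl9 and Cxcl10), and 0 to 1 with single libraries left out. For WT at 24 h against 12 h the count of 5 was 3 to 5 with single libraries left out, and for the interaction at 3 h and at 6 h the count of 0 was 0 to 1. RLE factors changed no call of a member, nor did the sex covariate, which was run for KO against WT only. Except where the setting uses fewer libraries, the cause was not tested. Depth limits Cxcl1, Cxcl3, Cxcl9 and Cxcl11 before LPS, with 2 to 31 counts per group.

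The replicate numbers were not shown to pair KO with WT: the deviations of KO and WT libraries of one number and time correlated at -0.233 to 0.133, with 1 of 20 pairs over 0.1. Across times within a genotype, 24 of 40 pairs in KO and 22 of 40 in WT were over 0.1 (up to 0.352 in KO and 0.441 in WT), and the sex read from counts was the same at all 5 times for each number. That hints at shared animals within a genotype, from the data and not from the design. With the replicate block, Cxcl1 was called at 3 h (log2 0.62, adjusted p = 0.0109, edgeR) and Cxcl11 was not (adjusted p = 0.188), and at 6 h the count of calls was 1 (Cxcl9, adjusted p = 0.0071). Within genotypes the block lost 0 calls and gained 2 against 0 h, 7 between successive times and 7 between other pairs of times, among them Cxcl1 in WT at 24 h against 0 h (adjusted p = 0.00163), Cxcl14 in KO at 24 h against 0 h (0.0398) and Cxcl9 in KO at 12 h against 6 h (0.0012).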

Other observations

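Cxcl13, a ligand of CXCR5 on B cells and no member of the group described, was counted in KO replicate 4 and in no other library. That replicate had 1, 2, 1, 7 and 22 counts at 0, 3, 6, 12 and 24 h, or 0.18, 0.371, 0.276, 1.78 and 3.7 CPM. The 4 WT libraries of each time and the other 3 KO libraries had 0 counts. Cxcl13 was singled out after its values were seen, and no test was made of it.

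Otulin itself had 45.2 to 51.7 CPM in KO at 24 h and 27.6 to 37.1 CPM in WT, without overlap, while at 3 h it had 31.4 to 33.5 CPM in KO cells and 36.4 to 47.5 CPM in WT, again without overlap. Neither difference was called (log2 0.59 ± 0.11 at 24 h and -0.41 ± 0.098 at 3 h, SE, adjusted p = 0.0704 and 0.0564, edgeR).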
